A study of Mus musculus with 2 samples.

Results

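Depp1 and 5 genes of the FOXO axis, Foxo1, Foxo3, Irs2, Txnip and Pik3ip1, were followed across the cell types of the post-ischemic mouse kidney. These are 6 of the 32285 genes listed in the files, found by their symbols. They were chosen with the values of these same libraries known, so their levels and ratios are a description and were not tested. Single-cell RNA sequencing was performed on kidney cells of 2 male 9-week-old C57BL/6 mice, both after bilateral renal ischemia-reperfusion surgery and both taken at 24 h. The control mouse received saline and the other received JPI-289, an inhibitor of poly(ADP-ribose) polymerase, at 100 mg/kg into the peritoneal cavity just before reperfusion. There was 1 library per condition, and no uninjured kidney was analysed here, so the effect of the drug and the difference between these 2 mice cannot be told apart.

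FOXO factors are transcription factors that act when insulin and growth factor signalling is low. Insulin receptors signal through IRS adaptors, PI3K and AKT, and AKT phosphorylates FOXO proteins and sends them out of the nucleus, so their activity is set largely by location and not by the amount of their RNA. In the kidney, FOXO factors are known for the control of gluconeogenesis in the proximal tubule, of autophagy and antioxidant genes under stress, and of quiescence in endothelium.

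The genes lie apart in the genome (GRCm38, GENCODE vM21). Depp1 (ENSMUSG00000048489) is on the plus strand at chr6:116650609-116652794, inside the span of Rassf4 on the opposite strand. Txnip (ENSMUSG00000038393) is on the plus strand at chr3:96557957-96561883 and overlaps the antisense gene Gm15441. Irs2 (ENSMUSG00000038894) is on the minus strand at chr8:10984681-11008458. Foxo1 (ENSMUSG00000044167) is on the plus strand at chr3:52268336-52353221, Foxo3 (ENSMUSG00000048756) on the minus strand at chr10:42181841-42276755, and Pik3ip1 (ENSMUSG00000034614) on the plus strand at chr11:3330401-3342971. Rassf4 had 173 unique molecular identifiers (UMIs, each counted as 1 RNA molecule) in all control cells and 161 in all JPI-289 cells, and Gm15441 had 232 and 546. How strand was handled in counting is not given in the sources used here, so RNA of overlapping genes may have been shared between them. In PT-like cells Rassf4 had 2 and 6 UMIs.

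The promoters of 6 of 6 genes were found in the RefSeq table (GRCm38.p6, 250 bases before to 50 after each start). The DNA letters GTAAACA, CAAAACAA and CACGTG were searched on both strands. GTAAACA is a form of the core bound by FOXO factors, and CAAAACAA a form of the insulin response element. CACGTG is the E-box that is part of the sites of MondoA and ChREBP. GTAAACA was present in 3.65% of all 32851 promoters and in 1 of the 6, that of Txnip, 121 bases upstream of the start. CAAAACAA was present in 2.51% and in 1 of the 6, that of Irs2, on the reverse strand 38 bases upstream. CACGTG was present in 7.15% and in 1 of the 6, again Irs2, where it lies 44 bases upstream and directly adjoins the insulin response element. The bases upstream of the gene are shown for Depp1, Irs2 and Txnip, the members that were higher in JPI-289 PT-like cells beyond counting error, from 5′ to 3′ on the strand of the gene, with the matches in capitals. They are Depp1 at chr6:116650434-116650608, Irs2 at chr8:11008930-11009179 (minus strand) and Txnip at chr3:96557707-96557956. Distances are counted from the RefSeq start, which equals the GENCODE start given above only for Txnip. The Depp1 bases are therefore cut at the GENCODE start, and the Irs2 bases do not adjoin the GENCODE gene. The window searched for Pik3ip1, chr11:3330481-3330780, lies inside its GENCODE gene. No match in Depp1 says only that these exact letters are absent from this window. Other forms of the sites were not searched, such as the gtaaata in the printed Depp1 bases.
Depp1: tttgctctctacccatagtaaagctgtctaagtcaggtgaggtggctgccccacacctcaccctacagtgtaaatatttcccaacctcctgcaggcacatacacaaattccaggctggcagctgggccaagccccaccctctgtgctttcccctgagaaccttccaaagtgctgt
Irs2: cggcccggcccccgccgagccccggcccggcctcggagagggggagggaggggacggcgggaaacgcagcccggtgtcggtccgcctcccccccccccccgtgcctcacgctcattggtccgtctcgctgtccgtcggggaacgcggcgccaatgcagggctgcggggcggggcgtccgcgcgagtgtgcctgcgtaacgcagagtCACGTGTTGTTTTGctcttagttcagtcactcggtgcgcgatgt
Txnip: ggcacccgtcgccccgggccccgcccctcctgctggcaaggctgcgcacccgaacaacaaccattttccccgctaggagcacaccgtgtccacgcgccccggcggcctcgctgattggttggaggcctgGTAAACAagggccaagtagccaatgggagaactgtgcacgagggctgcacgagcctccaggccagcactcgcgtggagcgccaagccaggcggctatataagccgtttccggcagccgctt

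The control library had 38328760 UMIs and the JPI-289 library 35548396, with 4293 and 5426 called cells. Of these, 3753 and 5032 remained after a filter on mitochondrial UMIs, and their median depth was 2051 and 1870 UMIs. Both libraries used 5′ counting, and 23 cell barcodes were present in both, against 25.6 from random draws. Cells were grouped by marker genes into 11 classes, of which 10 had at least 50 cells in each library. The proximal tubule (PT)-like class had 1790 control and 1652 JPI-289 cells with UMIs of 15 of 15 PT markers in each library. The endothelial (EC)-like class had 500 and 571 cells with UMIs of 9 of 9 EC markers. PT-like cells of the 2 libraries fell into different clusters. Control clusters were led by Keg1, Tmem174 and Gm26917, and JPI-289 clusters by Srxn1, Fgb and Kap. Levels are given in CPM, the UMIs of a gene in every 1000000 UMIs of its class. Summed markers of injured PT were at 361 CPM in control and 2102 CPM in JPI-289 PT-like cells, and summed PT markers were 16196 and 12999 CPM. Single markers were mixed, with 5 of the 7 injury markers higher in JPI-289 and 2 lower, and 4 of the 15 PT markers higher and 11 lower. The part of these differences in the results below was not tested. Ratios are JPI-289 over control on the log2 scale with 0.5 added to each sum, and 95% intervals cover counting error only.

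Depp1, a FOXO-induced gene linked to autophagy, was close to absent from control PT-like cells and well counted in those given JPI-289. The control PT-like cells had 10 Depp1 UMIs (1.23 CPM) and the JPI-289 PT-like cells 659 (89.8 CPM). The JPI-289 level was 72.8-fold higher, with a log2 ratio of 6.12 (5.30 to 7.25). Free RNA would give 5.14 of the 10 control UMIs, and the log2 ratio was 6.96 or 7.14 after subtraction of free RNA, depending on the barcodes it was estimated from. A Depp1 UMI was seen in 269 of 1652 JPI-289 PT-like cells, and 114 had 2 or more. The UMIs were uneven, with 67.1% of them in the 83 cells that had most and 34 in 1 cell. By cluster, the JPI-289 levels were 99.6 CPM in the Srxn1-led cells, 81.6 CPM in the Fgb-led cells and 89.3 CPM in the Kap-led cells. The 3 control clusters had 1.71, 0.903 and 2.60 CPM. Every JPI-289 PT-like cluster was thus above every control cluster, with intervals that did not overlap. After each cell was thinned to 1000 UMIs, a Depp1 UMI was seen in 0.299% of the 1337 PT-like cells left in control and 8.61% of the 1138 left in JPI-289, and without thinning in 0.503% and 16.3%. Shallower cells, 453 in control and 514 in JPI-289, were left out of the thinned shares. In neutrophil-like cells, taken as background, the thinned share was 0 of 177 in control, which allows up to 1.69%, and 0.859% of 582 in JPI-289. Their median depth was 2080 and 2198 UMIs before thinning, against 3501 and 3451 in the PT-like cells.

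Free RNA carried Depp1 in the JPI-289 library. Barcodes under 100 UMIs, which hold RNA outside cells, had 5 Depp1 UMIs (11.3 CPM) in the control and 56 (163 CPM) in the JPI-289 library. In the JPI-289 library distal tubule (DCT/CNT)-like cells had 3.77 CPM of Depp1, macrophage-like cells 7.61 CPM, neutrophil-like cells 8.67 CPM, red blood cell-like cells 8.83 CPM and collecting duct (CD)-like cells 24.7 CPM. The estimated share of free RNA differed between classes, at 3.75% of the UMIs of PT-like, 14.8% of CD-like and 30.9% of EC-like cells in that library. Subtraction of the free RNA profile attributed 44.9 of the 659 PT-like UMIs to it and left 614. EC markers summed to 54.3 CPM in control and 16.9 CPM in JPI-289 PT-like cells, with UMIs of 9 of 9 in both. Within the JPI-289 PT-like cells, EC markers were at 30.3 CPM in the 269 cells with a Depp1 UMI, with Cdh5 and Ehd3 at 0, and at 12.4 CPM in the others. In EC-like cells of that library the same markers were at 11070 CPM. The part of EC RNA in the PT-like level was not tested.

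EC-like cells had the highest Depp1 level of the 10 classes in both libraries. They had 299 Depp1 UMIs (152 CPM) in control and 1642 (956 CPM) in JPI-289, a 6.29-fold difference with a log2 ratio of 2.65 (2.47 to 2.83). This class held 77.7% of the Depp1 UMIs of all control cells and 63.1% of those of all JPI-289 cells. The thinned share of cells with a Depp1 UMI was 10.2% of 361 control and 38.1% of 373 JPI-289 EC-like cells. The UMIs were uneven here too. In control 82.6% of them lay in the 25 cells that had most, with 44 in 1 cell. In JPI-289 48% lay in the 29 cells that had most, with 118 in 1 cell. The makeup of the class differed between the libraries. The Plvap-led cluster had 178 control cells and 1 JPI-289 cell, while the Igfbp3-led cluster had 76 and 286. Within the Igfbp3-led cluster, Depp1 was at 305 CPM in control and 1095 CPM in JPI-289, a log2 ratio of 1.84 (1.64 to 2.06). Within the Hspa1b-led cluster, of 246 and 284 cells, it was at 28.5 and 402 CPM, a log2 ratio of 3.76 (2.93 to 4.85). Depp1 was therefore higher in JPI-289 in each EC-like cluster that both libraries shared. Without the Plvap-led cluster the log2 ratio of the class was 2.20. Markers of red blood cells moved with the EC-like class, at 110 CPM in control and 1351 CPM in JPI-289, and their part in the result was not tested.

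**Figure D1:**
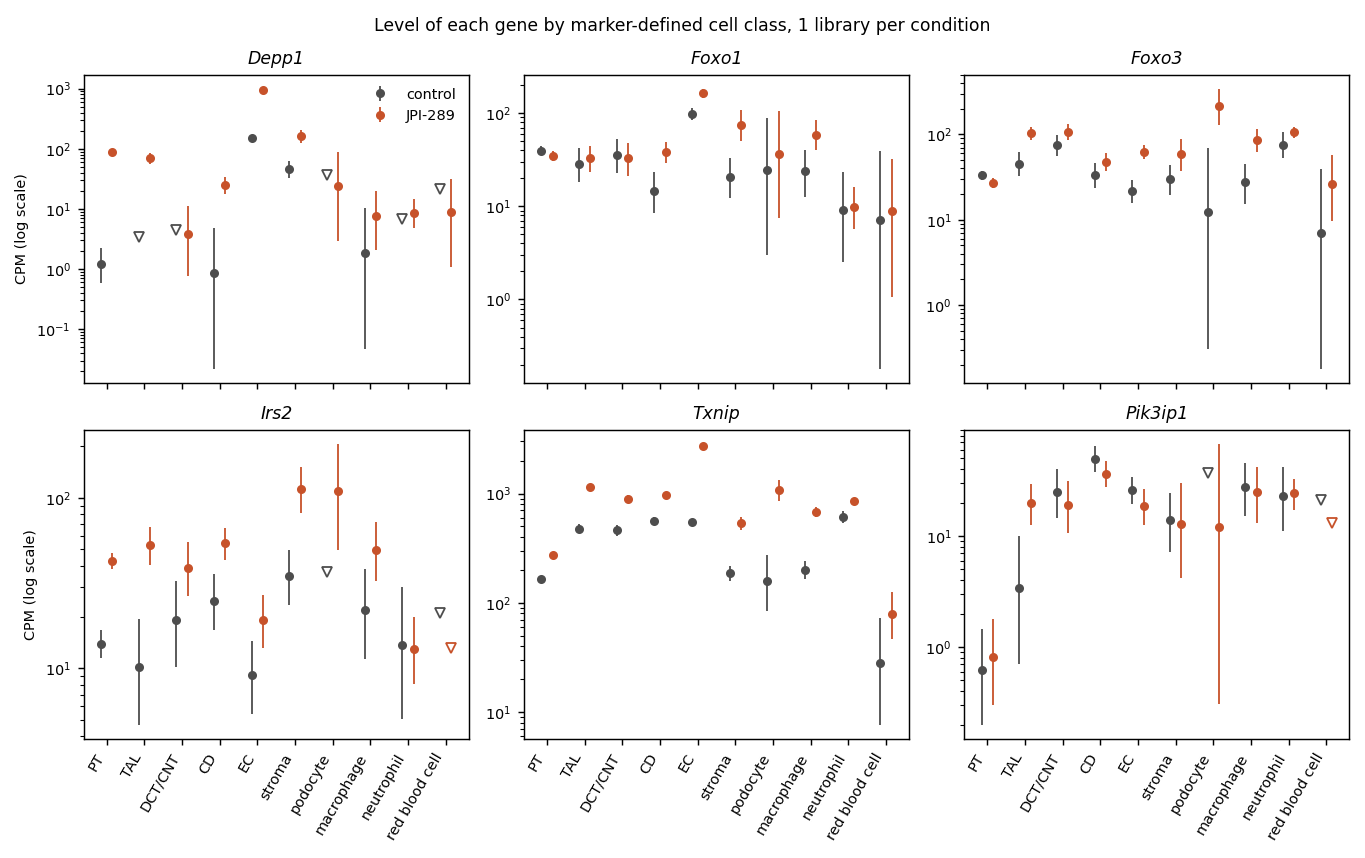
Level of each gene in CPM (log scale) by cell class, control in grey and JPI-289 in orange, with exact 95% Poisson intervals. Open triangles mark a class with no UMI, at the level that 3 UMIs would give. Depp1 in PT-like cells is at 1.23 CPM in control and 89.8 CPM in JPI-289, and the JPI-289 level of Txnip is above the control level in all 10 classes.

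Outside the PT-like and EC-like cells, Depp1 was counted above free RNA in the thick ascending limb (TAL)-like cells of the JPI-289 library. These had 0 Depp1 UMIs in control and 84 (69.0 CPM) in JPI-289, at least 20.2-fold higher against the 3 counts that a control count of 0 allows. The 84 UMIs came from 36 cells, and 27 of them from 1 cell. Subtraction of free RNA left 74.5. In these 36 cells EC markers were at 76.8 CPM, against 40.0 CPM in the other TAL-like cells, and 11 EC marker UMIs were seen in all. The TAL-like classes of the 2 libraries differed in their markers. Summed markers of DCT/CNT were at 8289 CPM in control, with UMIs of 5 of 6, and at 786 CPM in JPI-289, with UMIs of 6 of 6, and those of TAL, with UMIs of 7 of 7 in each, were at 7198 and 9375 CPM. Summed markers of red blood cells were at 1335 and 96.1 CPM. The part of these differences in the TAL-like ratios of every gene was not tested. In CD-like cells Depp1 had 1 UMI in control and 38 in JPI-289, a log2 ratio of 4.28 (2.28 to 10.19). Free RNA alone would give 37.2 of those 38 UMIs, and 17 were in 1 cell. The same estimate gave 12.9 UMIs for JPI-289 macrophage-like cells, which had 4. It therefore cannot settle whether the level in CD-like cells was above background. EC markers were at 946 CPM in the 20 JPI-289 CD-like cells with a Depp1 UMI and at 149 CPM in the others. Stroma-like cells had 40 Depp1 UMIs (46.2 CPM) in control and 64 (164 CPM) in JPI-289. Here 53 of the 64 lay in 1 cell, and 60 lay in the 9 cells with the highest doublet scores. The control count was also narrow, with 26 of the 40 in 1 cell and all 40 in 5 cells. Without the highest-scored cells of both libraries the log2 ratio went from 1.82 to −1.81. EC markers were at 3164 CPM in the 8 stroma-like cells with a Depp1 UMI and at 618 CPM in the others. The remaining named classes had at most 14 Depp1 UMIs in a library. The cells left unnamed had 34 (18.6 CPM) in control and 86 (39.4 CPM) in JPI-289.

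Foxo1 and Foxo3, the main FOXO factors of the kidney, differed far less than Depp1 in PT-like cells. Foxo1 had 322 UMIs (39.7 CPM) in control and 254 (34.6 CPM) in JPI-289 PT-like cells, a log2 ratio of −0.20 (−0.44 to 0.04) that includes 0. Foxo3 had 268 (33.1 CPM) and 199 (27.1 CPM), a log2 ratio of −0.29 (−0.56 to −0.02). The median log2 ratio of all 11301 genes measured in PT-like cells was −0.19, and relative to it Foxo3 was at −0.10. The Foxo3 value also turned on 1 control cluster, led by Gm26917, in which Foxo3 was at 77.9 CPM against 27.3 to 32.0 CPM in the other 2. Without that cluster the log2 ratio was −0.06. Foxo4, another FOXO factor, had 45 and 52 UMIs with a log2 ratio of 0.35 (−0.25 to 0.96), and Foxo6 had 2 and 0.

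Of the 8 classes with at least 20 UMIs of the gene over both libraries, Foxo1 was higher in JPI-289 in 5 and Foxo3 in 7. Among the 10 compared classes Foxo1 was highest in EC-like cells in both libraries. It was at 98.2 CPM (193 UMIs) in control and 164 CPM (281 UMIs) in JPI-289, with a log2 ratio of 0.74. Its interval lay above 0 in 4 of these 8, namely CD-, EC-, stroma- and macrophage-like cells. Stroma-like cells had 18 and 29 Foxo1 UMIs, and 13 of the 29 lay in the 9 cells with the highest doublet scores. Below EC-like cells the control order of Foxo1 had no neighbours whose intervals were apart. Foxo3 was at 21.9 CPM in control and 62.9 CPM in JPI-289 EC-like cells, a log2 ratio of 1.51, and at 45.4 and 103 CPM in TAL-like cells, a log2 ratio of 1.16. In macrophage-like cells its log2 ratio was 1.61. Between control and JPI-289, summed markers of macrophages in this class went from 14704 to 7081 CPM, with UMIs of 9 of 10 in each, and those of red blood cells from 80.4 to 3628 CPM, and their part in the macrophage-like ratios was not tested. Stroma-like cells had 26 and 23 Foxo3 UMIs, a log2 ratio of 0.97 (0.10 to 1.84). Their summed stroma markers went from 18086 to 9307 CPM, with UMIs of 10 of 10 in each. Markers of neutrophils there went from 9.24 to 612 CPM and those of red blood cells from 86.6 to 422 CPM. The part of these differences in the stroma-like ratios was not tested. In control the highest Foxo3 levels were 75.9 CPM in neutrophil-like and 75.1 CPM in DCT/CNT-like cells, which did not differ beyond their intervals.

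Irs2, an adaptor of the insulin receptor and itself a FOXO target in liver, was higher in JPI-289 in each of the PT-, TAL-, DCT/CNT- and CD-like tubule classes. PT-like cells had 113 Irs2 UMIs (13.9 CPM) in control and 313 (42.6 CPM) in JPI-289, a log2 ratio of 1.61 (1.30 to 1.94). The JPI-289 UMIs lay in 222 of 1652 cells. The Fgb-led JPI-289 cluster was highest, at 61.1 CPM, and the other 2 were at 31.4 and 31.6 CPM. Control clusters ranged from 6.28 CPM in the Keg1-led to 29.9 CPM in the Gm26917-led cells, and the last overlapped the lower JPI-289 clusters. TAL-like cells had 9 Irs2 UMIs in control and 64 in JPI-289, a log2 ratio of 2.29, and CD-like cells 29 and 83, a log2 ratio of 1.10. The CD-like class was made up of a cluster led by Sprr2f, with 12 control and 294 JPI-289 cells, and one led by Aqp2, with 110 and 149, and its median depth was 6741.5 and 1563 UMIs per cell. Within the Aqp2-led cluster Irs2 had 29 and 56 UMIs, a log2 ratio of 0.94. The interval was above 0 in 7 of the 8 classes with at least 20 Irs2 UMIs, and neutrophil-like cells had a log2 ratio of −0.17. In EC-like cells, 1 of those 7, with 18 and 33 UMIs, free RNA would give 30.8 of the 33 JPI-289 UMIs, and the log2 ratio of 1.05 became −2.16 after its subtraction. That estimate rests on 20 Irs2 UMIs in JPI-289 barcodes under 100 UMIs, at 58.2 CPM with an interval of 35.5 to 89.9. It cannot settle whether Irs2 was above background in JPI-289 EC-like cells.

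Txnip encodes an arrestin-like protein that binds thioredoxin and restrains glucose uptake, and its transcription follows glucose through MondoA and ChREBP. It was higher in JPI-289 in 10 of 10 classes, with an interval above 0 in 9. The exception was red blood cell-like cells, where it had 4 and 18 UMIs. There the log2 ratio of 1.36 became −0.65 after subtraction of free RNA. Podocyte-like cells, 1 of the 9, had 13 and 89 Txnip UMIs, of which free RNA would give 10.3 and 12. Their summed PT markers were at 6088 CPM in control and 2161 CPM in JPI-289, and their podocyte markers at 4539 and 3586 CPM. The part of these differences in the podocyte-like ratio was not tested. EC-like cells had the largest JPI-289 level of the 10 classes. They had 1070 Txnip UMIs (544 CPM) in control and 4727 (2751 CPM) in JPI-289, a log2 ratio of 2.34 (2.24 to 2.44). The share of EC-like cells with a Txnip UMI after thinning was 41.6% in control and 80.2% in JPI-289. In the Igfbp3-led EC-like cells the levels were 399 and 3006 CPM, a log2 ratio of 2.91, and in the Hspa1b-led cells 282 and 1738 CPM, a log2 ratio of 2.62. The order of the classes differed between the libraries. In control, neutrophil-, CD-, EC-, TAL- and DCT/CNT-like cells lay between 460 and 612 CPM, each with an interval that overlapped the next, while in JPI-289 the EC-like level stood apart from the next, 1137 CPM in TAL-like cells.

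In PT-like cells Txnip was lower than in the other tubule classes in both libraries. They had 1329 Txnip UMIs (164 CPM) in control and 2000 (272 CPM) in JPI-289, a log2 ratio of 0.73 (0.63 to 0.83). The spread within the control library was wider than this difference. The Gm26917-led control cluster was at 479 CPM, above all 3 JPI-289 clusters, which lay between 210 and 312 CPM, and the Keg1-led and Tmem174-led control clusters were at 102 and 140 CPM. Without the Gm26917-led cluster the log2 ratio was 1.05. The unnamed cluster led by Neat1 and Gm26917, with 23 control and 256 JPI-289 cells, had 452 CPM in JPI-289, and with it counted as PT-like the ratio was 0.82. TAL-like cells had a log2 ratio of 1.25, DCT/CNT-like cells 0.97, CD-like cells 0.77, macrophage-like cells 1.74 and neutrophil-like cells 0.47.

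**Figure D2:**
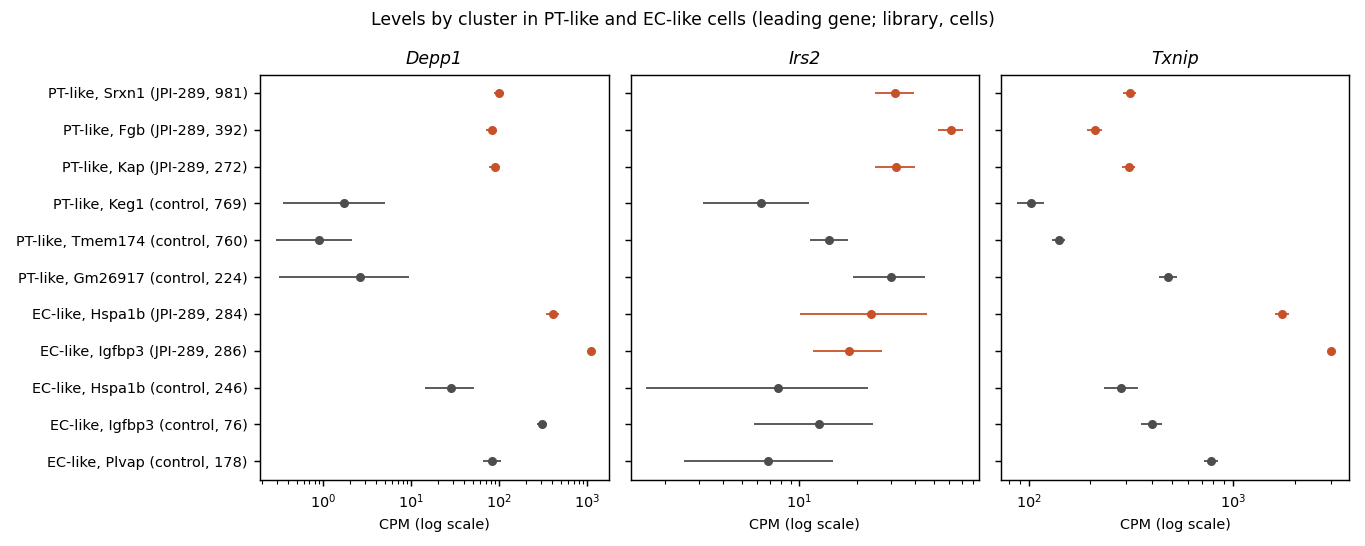
Levels of Depp1, Irs2 and Txnip in CPM (log scale) in the PT-like and EC-like clusters with at least 50 cells of a library, control in grey and JPI-289 in orange, each named by its leading gene with its library and number of cells. Bars are exact 95% Poisson intervals. The control and JPI-289 PT-like clusters are apart for Depp1, while for Txnip the Gm26917-led control cluster at 479 CPM lies above the JPI-289 PT-like clusters.

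Pik3ip1, a membrane protein that restrains PI3K, was higher in JPI-289 in 2 of the 6 classes with at least 20 UMIs of it. It had 5 UMIs in control and 6 in JPI-289 PT-like cells, too few to compare. CD-like cells had the highest level of the 10 classes, with 58 UMIs (49.8 CPM) in control and 56 (36.4 CPM) in JPI-289, a log2 ratio of −0.45. EC-like cells had 51 and 32 UMIs, a log2 ratio of −0.47. Both intervals included 0. The interval was above 0 in 1 class, the TAL-like cells, with 3 UMIs in control and 24 in JPI-289 and a log2 ratio of 2.34 (0.81 to 4.91).

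**Figure D3:**
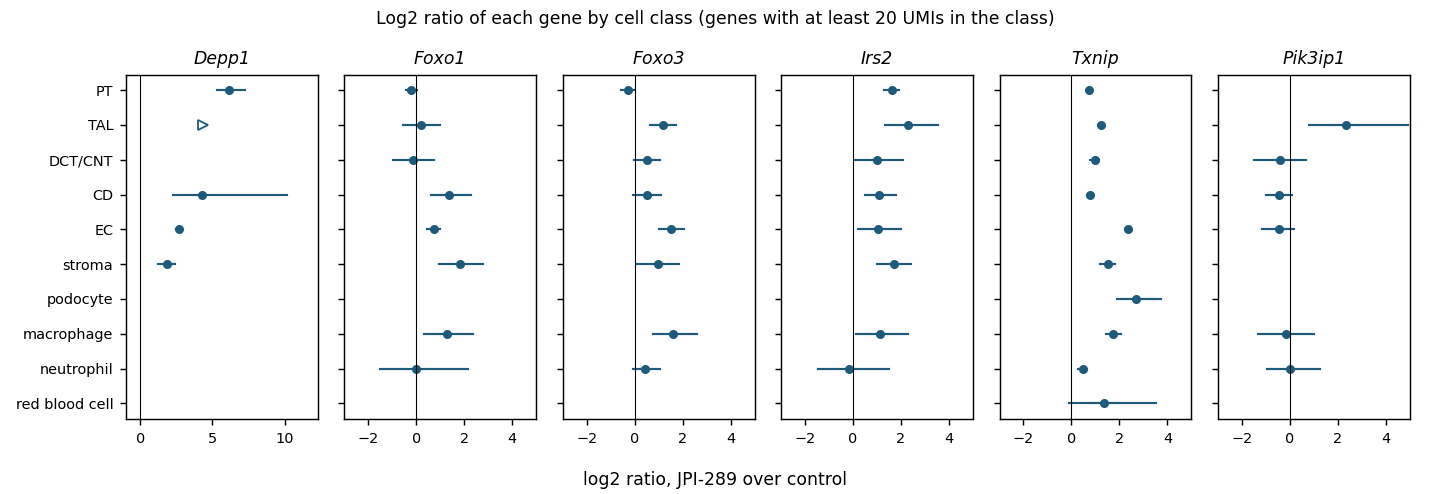
Log2 ratio of JPI-289 over control for each gene by cell class, with 95% counting intervals, where a gene had at least 20 UMIs in the class. The horizontal axis for Depp1 is wider than the others, and its open triangle in TAL-like cells is the lower bound from 3 counts. Depp1 is at 6.12 in PT-like and 2.65 in EC-like cells, and Foxo1 and Foxo3 lie close to 0 in PT-like cells.

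Set against all genes with at least 20 UMIs in the same class, the members stood as follows. In PT-like cells 2 of 5 measured members, Depp1 and Irs2, were at least 2-fold higher in JPI-289, where 9.08% of all genes were. No member was 2-fold lower there, where 23.5% of all genes were. In EC-like cells 4 of 6 were 2-fold higher, against 5.23% of all genes, and none was 2-fold lower, against 18.5%. The counts were 5 of 6 in TAL-like cells (8.49% of all genes), 3 of 6 in CD-like cells (7.75%), 4 of 5 in stroma-like cells (11.6%) and 4 of 5 in macrophage-like cells (11%). None of 5 was 2-fold higher in DCT/CNT-like cells (7.07%) or in neutrophil-like cells (11.6%). Txnip alone was measured in podocyte-like cells (24.6%) and in red blood cell-like cells (17.4%), and was 2-fold higher in both. Since the genes were chosen for such differences, nothing is read from these counts.

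The wider axis was described in PT-like cells with 5 lists (FOXO factors, the insulin and PI3K arm, FOXO modifiers, reported FOXO targets and the neighbours of Txnip), of which 73 of 79 genes outside the 6 were measured. Of these, 11 were at least 2-fold higher and 16 at least 2-fold lower in JPI-289, where 9.08% and 23.5% of all genes were. In all, 31 of 73 were higher, against 42.1% of all genes, and the median log2 ratio was −0.22 against −0.19 for all genes.

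Of the 20 measured genes of the insulin and PI3K branch 2 were 2-fold higher and 4 were 2-fold lower, against 9.08% and 23.5% of all genes, with a median of −0.55. The receptors were lower, Insr of insulin at −2.31 (402 and 73 UMIs) and Igf1r of IGF-1 at −1.52 (820 and 259 UMIs). Pik3r1, the regulatory subunit of PI3K, was at −1.12. The 2 that were higher were Irs2 and Akt1, a kinase that acts on FOXO proteins, at 1.54 (306 and 808 UMIs). In EC-like cells Insr was at −0.99, Igf1r at −0.68, Pik3r1 at 0.28 and Akt1 at 0.50. Of the 10 FOXO modifiers 1 was 2-fold higher, Prmt1, an arginine methyltransferase that acts on FOXO1, at 1.49, and the median was 0.37.

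Of 33 measured FOXO targets, 8 were at least 2-fold higher and 9 at least 2-fold lower, against 9.08% and 23.5% of all genes. Depp1 is among the 8, and the median of the list was −0.01. The genes of glucose output were lower, with Pck1, the cytosolic enzyme of gluconeogenesis, at −2.77 (57636 and 7663 UMIs) and G6pc, the glucose-6-phosphatase, at −6.15. Trim63, a ubiquitin ligase of muscle wasting, had 208 and 3 UMIs and was at −5.75 (−8.26 to −4.41). Ccnd1, cyclin D1, which FOXO factors are known to repress, was at −4.57. Pdk4, the kinase that shuts glucose carbon out of the mitochondrial cycle, was higher, at 2.92 (1226 and 8392 UMIs, 151 and 1143 CPM). In EC-like cells it was at 3.63 (27 and 296 UMIs, 13.7 and 172 CPM). EC-like cells also held PT RNA, with summed PT markers at 1884 CPM in control and 1345 CPM in JPI-289. The part of PT RNA in the EC-like values of the axis genes was not tested. The lists were not split by how FOXO factors act on each gene.

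Among the neighbours of Txnip, 2 of 12 measured genes were 2-fold higher and 3 were 2-fold lower, against 9.08% and 23.5% of all genes, with a median of 0.15, Txnip included. Mlxipl, which encodes ChREBP, was at −2.77 (645 and 85 UMIs) and its partner Mlx at −1.81 (396 and 102 UMIs). Slc2a2, the basolateral glucose transporter of the proximal tubule, was at −4.90, while Slc2a1, the widely used glucose transporter, was at 1.10 (75 and 146 UMIs). Txn1, the thioredoxin that TXNIP binds, was at 1.17. These lists hold genes that are also typical of PT cells, and 11 of 15 PT markers were lower in JPI-289 PT-like cells with a median log2 ratio of −1.51. The part of that difference in the axis genes was not tested.

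**Figure D4:**
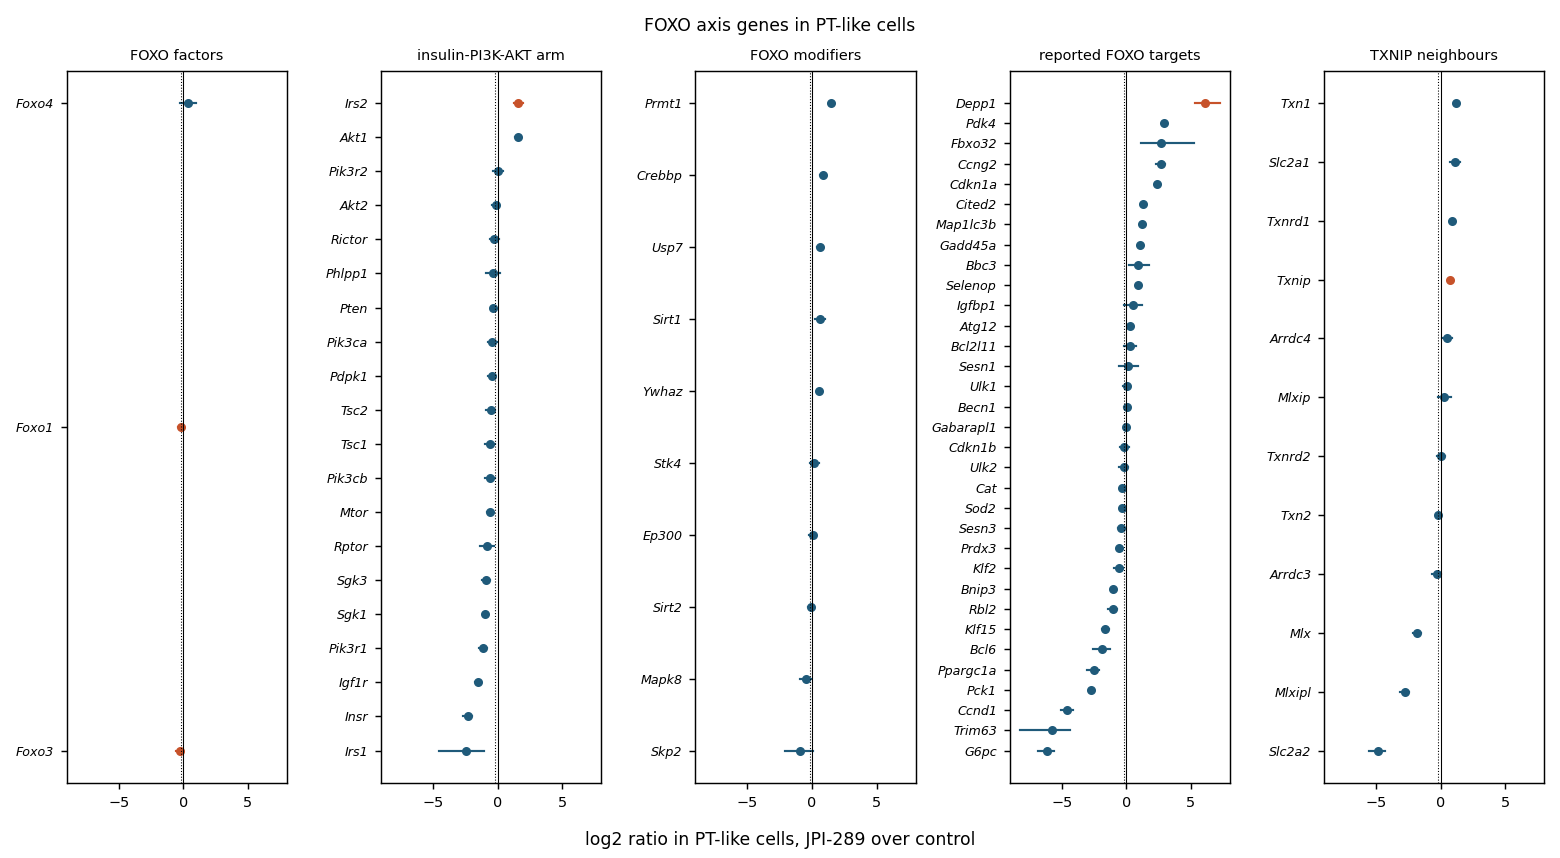
Log2 ratio of JPI-289 over control in PT-like cells for the measured genes of the 5 lists, with 95% counting intervals. The followed genes are in orange, without Pik3ip1, which had too few UMIs to be measured. The solid line marks 0 and the dotted line the median of all genes at −0.19. Depp1 at 6.12 and G6pc at −6.15 are the ends of the list of FOXO targets, and Insr and Igf1r lie below 0 in the insulin branch.

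Likeness of pattern was measured by Pearson r of log2(CPM + 10) over 20 units, the 10 classes in each library, among 9761 genes. Units of a library share its depth and free RNA, and r is given without a test. The genes most like Depp1 were Igfbp3 (r = 0.87), which binds insulin-like growth factors, Lrp3 (0.85) and Nmb (0.84), which encodes neuromedin B. Igfbp3 was at 1581 CPM in control and 8508 CPM in JPI-289 EC-like cells, but at 3.58 and 10.4 CPM in PT-like cells, so it lacked the PT-like level of Depp1. The genes most like Foxo1 were Fez2 (0.91), Mtmr2 (0.89) and Wdr43 (0.88), and those most like Foxo3 were Cdk12 (0.87), a kinase of RNA polymerase II, 4833420G17Rik (0.87) and the splicing kinase Clk4 (0.85). Irs2 was nearest to Akirin2 (0.90), Zfp777 (0.90) and Utp15 (0.89). Txnip was nearest to Hif1a (0.91), the oxygen-regulated transcription factor, Cab39 (0.88) and Epc2 (0.88). Pik3ip1 was nearest to Ptgs1 (0.88), which encodes cyclooxygenase-1, Pkm (0.85) and Ly6e (0.85). Among the members, r was highest between Foxo3 and Txnip (0.77) and between Depp1 and Foxo1 (0.74), and lowest between Depp1 and Foxo3 (0.12).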

How the data were processed

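Raw counts were analysed. The authors made 5′ single-cell libraries (10x Genomics), ran Cell Ranger (5.0.1 per the labels) on mm10, and deposited raw UMI counts for every barcode, unfiltered. Cells were called by UMI total (above 3338 for the control, 2618 for JPI-289), then, from 500 UMIs, by difference from empty droplets (10000 simulations, false discovery rate 0.01). Cells with over 50% mitochondrial UMIs were removed (540 and 394). Cells were clustered with the Leiden method at resolution 1 on 2000 variable genes and 30 components, with no correction between libraries, and named from marker lists by a rule set after the clusters were seen. Classes are called by their markers, and 182 control and 468 JPI-289 cells stayed unnamed. The doublet caller scrublet marked 2 of 8785 cells and so did not work, hence doublets were kept and the 5% of cells with the highest scores were left out as an alternative.

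UMIs were summed per class and library. With 1 library per condition no test was made. The values of 1 marker gene are not reported here. Intervals are exact Poisson for levels, exact binomial for ratios and Clopper-Pearson for shares. A gene was measured in a class with at least 20 UMIs over both libraries. The members and the gene lists were chosen with earlier results of these data known. Genes named beside the 6 are, per list, those past 2-fold in PT-like cells with at least 100 UMIs, at most 6 by size, all FOXO factors, and the 3 genes most like each member among those with at least 200 UMIs. Free RNA was estimated from barcodes under 100 UMIs, scaled by the markers of other classes. In Poisson counts simulated from the sum of all control cells, the ratio intervals held the true ratio of 96% of 200 changed genes among 13530. The intervals assume such counts, so this checks the calculation only and not UMIs that gather in a few cells. Calling recovered 75.7% of 300 simulated cells of 800 UMIs, drawn from deep control cells, and 0 of 600 empty droplets. The tools were scanpy 1.11.5 and leidenalg 0.10.2 for clustering, and scipy 1.17.1 with numpy 2.4.6 under Python 3.11.15 for intervals.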

Additional observations from a re-analysis of the deposited data

Results flagged for a closer look

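Foxo3 stood out because its difference between JPI-289 and control had opposite directions in 2 sets of cells. In PT-like cells its log2 ratio was −0.29 with a counting interval below 0. In 4 other measured classes, TAL-, EC-, stroma- and macrophage-like cells, the interval lay above 0. The stroma-like value, 0.97 (0.10 to 1.84), rests on 26 and 23 UMIs. The PT-like value was −0.06 without the control cluster led by Gm26917 and −0.10 relative to the median of all genes. The difference between the classes was not tested, since there was 1 library per condition.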

How the results depend on the processing

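In PT-like cells 75 of 84 values of the 6 genes under 14 alternatives stayed within the counting interval of the reported value and 9 moved, and in EC-like cells these numbers were 60 and 5 of 66, with 1 reversed. No PT-like value whose interval excluded 0 changed sign, but Foxo1 and Pik3ip1, whose intervals included 0, did so under 1 alternative each. With only the PT-like clusters in which markers of injury led, which left 21 control cells with 28915 UMIs against 1373 with 5139440, the log2 ratio was 2.38 for Depp1, 0.92 for Foxo1, −0.84 for Foxo3 and −4.01 for Pik3ip1. These control cells had 0 UMIs of Depp1, Foxo1 and Pik3ip1 and 1 of Foxo3, so the 0.5 added to each sum largely sets these values and no direction is read from them. Txnip in PT-like cells was at 0.92 when centred on the all-gene median and at 1.04 with equal weight of each cell. Alternatives chosen after seeing the data gave Txnip 0.62 and Pik3ip1 2.53 with free RNA from barcodes of 100 to 300 UMIs, and Txnip 1.05 without the Gm26917-led cluster. In EC-like cells Txnip was at 2.51 after centring and 2.50 after subtraction of free RNA, and Irs2 reversed to −2.16 under that subtraction. Without the EC-like cluster mostly of 1 library, also chosen after seeing the data, Depp1 was at 2.20, Txnip at 2.94 and Pik3ip1 at 0.33. Depp1 in stroma-like cells reversed to −1.81 without the highest doublet scores. The difference in the share of PT-like cells with a UMI, in percentage points, with 500 UMIs per cell and without thinning, was 4.78 and 15.8 for Depp1 against 8.31, −0.60 and −2.10 for Foxo1 against −1.03, 0.32 and −1.30 for Foxo3 against −0.58, 1.55 and 8.09 for Irs2 against 1.64, and 7.21 and 14.1 for Txnip against 9.60. The axis genes 2-fold higher ranged from 8 to 15 and those 2-fold lower from 13 to 24, around 11 and 16. The cause of these shifts was not tested. No paired analysis was possible because each condition has 1 library. The low counts of Pik3ip1 in PT-like cells and of Depp1 in most non-EC classes limit what this depth can show.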

Other observations

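Lymphocyte-like cells were too few in the control library, with 6 cells against 98 in JPI-289, to enter a comparison. In the JPI-289 library they had 44 Foxo1 UMIs (192 CPM), 31 Pik3ip1 UMIs (135 CPM) and 567 Txnip UMIs (2477 CPM). The level of Pik3ip1 was above that of each of the 10 compared classes of that library, of which the highest was 36.4 CPM in CD-like cells, and the intervals did not overlap. The levels of Foxo1 and Txnip lay beside those of EC-like cells, at 164 and 2751 CPM, and for both genes the intervals overlapped. Depp1 had 3 UMIs (13.1 CPM) and Foxo3 5 (21.8 CPM) in these cells.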
